A study of Mus musculus with 8 samples.

Results

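The genes described here are the 165 rows of the count matrix whose mouse symbol runs from Zfp600 to Zfp999, out of 27179 genes in the matrix. They were chosen by name and not by any measured value, and 147 of the 165 had enough counts to be tested. RNA was taken from the embryonic cerebral cortex of 4 Taf8 wild-type embryos (Taf8 +/+) and 4 Taf8-deleted embryos (Taf8 -/lox), each library from its own embryo. The labels give neither the age of the embryos nor the Cre line that deletes the floxed allele, so which cells lost Taf8, and when, cannot be read from them. The question is how this numbered block of zinc finger genes, as a class and by place in the genome, differed between cortex with and without Taf8, a subunit of the general transcription factor TFIID.

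Most genes with these names encode C2H2 zinc finger proteins, in which an array of short zinc-binding modules reads DNA sequence. Many also carry a KRAB domain, which binds the co-repressor Trim28 (KAP1); Trim28 in turn brings in the histone H3 lysine 9 methyltransferase Setdb1, heterochromatin proteins and DNA methylation. KRAB zinc finger genes arose largely by tandem duplication, lie in clusters on several chromosomes, and are best known for silencing retroelements and for guarding imprinted regions. Other members have unrelated jobs, such as ribosome maturation or binding to other chromatin regulators. A KRAB A-box was found by a sequence pattern in the translated GENCODE coding sequence of 113 members and was not found in 48; 4 members had no matched coding sequence. The pattern is strict and passes over variant KRAB domains, so the second group holds some of these.

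Levels are in CPM, counts scaled to a common library size after trimmed-mean (TMM) scaling of the libraries. Total counts ran from 26312505 to 65523487 per library, with wild-type replicate 3 the deepest. Taf8 itself had 38.5, 35, 32.0 and 33.7 CPM in the wild-type libraries and 0.791, 0.747, 0.486 and 0.547 CPM in the deleted ones, 1.85% of the wild-type mean, so all 8 libraries matched their labels. Wild-type replicates 1 to 3 share the first part of their animal number and no first part is shared between genotypes, so whatever that part of the number stands for, which the labels do not say, cannot be told apart from genotype. Marker lists of cell types also differed between the groups. Of 10 cortical markers, 8 were lower in the deleted libraries (summed level 3064 to 3388 CPM against 2101 to 2485). Of 8 neuronal markers, 7 were lower (5226 to 6361 against 4207 to 4683 CPM), and of 8 radial glial markers, 5 were higher and 2 lower (2233 to 2513 against 3066 to 3421 CPM). All 8 endothelial and pericyte markers were higher (175 to 185 against 211 to 267 CPM), as were 5 of 8 meningeal fibroblast markers, whose sum was 14.7 to 34.5 CPM in wild-type libraries and 62.1, 109.7, 129.9 and 18.2 CPM in deleted replicates 1 to 4. Of 7 tested red blood cell markers, 4 were higher (225 to 295 against 308 to 413 CPM), and of 8 microglial markers, 5 were higher and 1 lower (43.7 to 50.4 against 49.1 to 62.7 CPM). Choroid plexus markers summed to 412.5 CPM in wild-type replicate 4 and 1225 CPM in deleted replicate 1, and none of the 6 passed the test; hindbrain and spinal cord Hox genes were at most 0.150 CPM in sum, with 5 of 6 at no more than 3 counts in every library. The part of these differences in the results on zinc finger genes was not tested. Deleted replicate 4, whose meningeal sum lay within the wild-type range, was also compared alone with the wild-type libraries. Its cortical, neuronal, radial glial and endothelial sums (2485, 4683, 3264 and 211 CPM) lay outside the wild-type ranges. That comparison of 1 library therefore cannot separate those differences. In bulk tissue, fewer cells of a type and less RNA per cell cannot be told apart.

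As a class, the zinc finger genes Zfp600 to Zfp999 were more often lower than higher in Taf8-deleted cortex. Of 147 tested, 56 were lower, 17 were higher and 74 did not pass an adjusted p of 0.05 (edgeR quasi-likelihood test, Benjamini-Hochberg over 15649 genes). The share lower was 38.1%, against 29.6% of all genes tested. The share higher was 11.6%, against 29.5%. In either direction, 49.7% of members passed, against 59.2% of all genes. Their median log2 fold change was -0.16, against 0.01 for all genes tested, and 104 of the 147 estimates were negative. Single members ranged from -1.93 for Zfp931 to 0.87 for Zfp660. Every deleted library lay below every wild-type library for 48 members, where 27.0% of all genes did so, and above for 15, where 26.6% of all genes did so. Most changes were small: 13 of the lower members and 1 of the higher ones differed by at least 1.5-fold, 8.84% and 0.68% of those tested, beside 9.28% and 10.9% of all genes tested. The 190 tested genes from Zfp1 to Zfp599 gave similar figures, with 84 lower, 23 higher and a median of -0.14, so the pattern was not limited to the higher numbers.

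**Figure D1:**
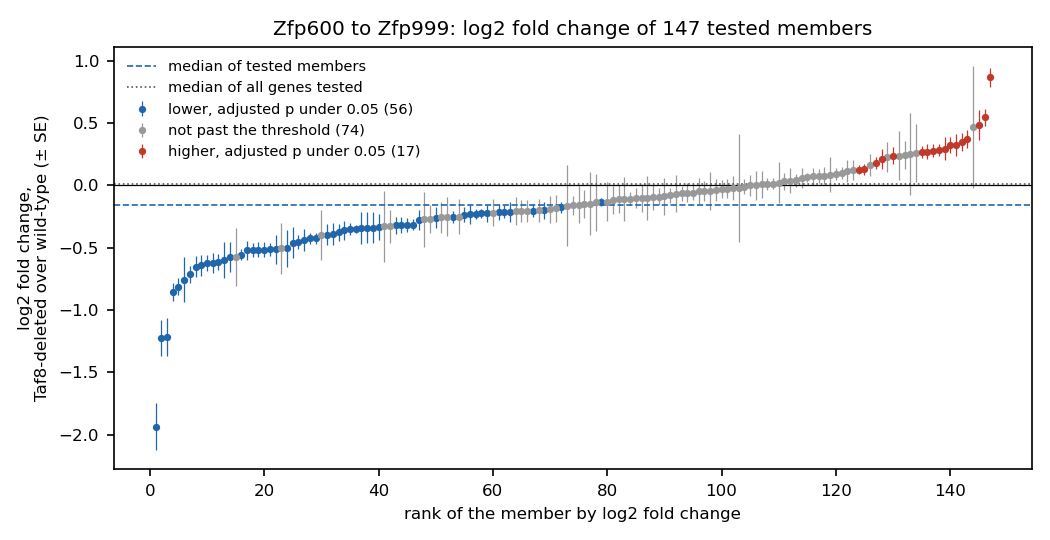
Log2 fold change (Taf8-deleted over wild-type, y axis, bars ± SE) of the 147 tested members, ordered by value (x axis) and coloured by the test. The median of members (dashed) lies at -0.16 and that of all genes tested (dotted) at 0.01; 3 members lie below -1 and none above 1.

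The size of the class-wide difference depended on individual libraries. Without wild-type replicate 3 the median was -0.10, with 53 members lower and 20 higher. Deleted replicate 4 alone against the 4 wild-type libraries gave a median of -0.09, beside -0.01 for all genes in that fit. The lone library is assumed there to vary like the others. The summed level of all members was 5302, 5349, 5685 and 5282 CPM in wild-type replicates 1 to 4 and 4982, 4618, 4800 and 4935 CPM in deleted replicates 1 to 4. All 4 deleted sums were below all 4 wild-type sums, and the deleted mean was 0.89 of the wild-type mean.

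Genes of like expression did not show the same tilt. Tested members were divided into 4 bins at the quartiles of their mean log2 CPM and all other tested genes of the same range were set beside them. In the lowest bin, 8 of 37 members were lower and none was higher (median -0.14), while 19.7% of 4748 other genes were lower and 30.9% higher (median 0.15). In the second bin, 12 of 36 members were lower and 6 higher (median -0.14), beside 34.1% and 30.3% of 1861 other genes (median -0.02). In the third, 16 of 37 were lower and 4 higher (median -0.16), beside 32.6% and 31.2% of 2089 others (median -0.01). In the highest bin, 20 of 37 members were lower and 7 higher (median -0.21), beside 34.8% and 28.4% of 6046 others (median -0.02). The median of members was below that of other genes in all 4 bins, also without each library in turn. The shortfall of higher calls was present in each bin, whereas the share of lower calls exceeded that of other genes by a wide margin only in the 2 upper bins, 43.2% and 54.1%. These are descriptions; no test was made of the difference from other genes.

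**Figure D2:**
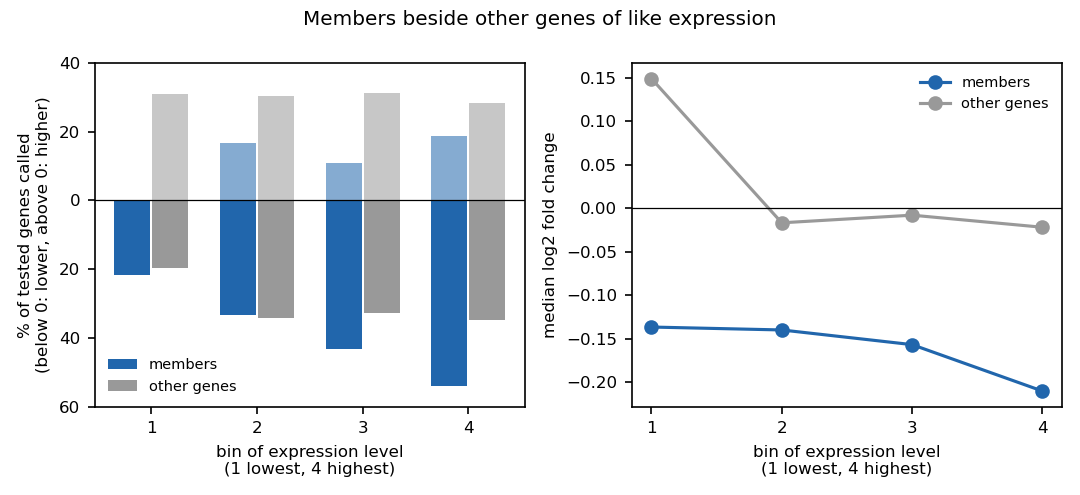
Left, percent of tested genes called lower (bars below 0) or higher (paler bars above 0) for members and for all other genes, in 4 bins of mean expression (x axis). Right, their median log2 fold change; members lie between -0.21 and -0.14, other genes between -0.02 and 0.15.

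The 3 members with the largest decrease all lie on chromosome 2. Zfp931 (gene 353208; mm10, chr2:178066446-178078425) had 2.92, 3.61, 4.33 and 3.97 CPM in the wild-type libraries and 1.13, 0.747, 0.785 and 1.15 CPM in the deleted ones. The highest deleted library was thus well under the lowest wild-type library, and the log2 fold change was -1.93 (SE 0.19, adjusted p = 9.63e-06). Zfp970 had 4.61, 3.59, 4.79 and 5.20 CPM in wild-type and 2.14, 1.98, 1.61 and 2.02 CPM in deleted libraries, again without overlap (log2 fold change -1.22, SE 0.14, adjusted p = 3.91e-05). Zfp937 had 11.2, 12.6, 15.4 and 12.1 CPM in wild-type and 5.75, 3.86, 6.43 and 6.13 CPM in deleted libraries (log2 fold change -1.21, SE 0.15, adjusted p = 6.11e-05). All 3 encode KRAB zinc finger proteins, with 7 fingers found in Zfp931 and 14 in each of the other two. Of their 81-base windows, 10.7% (Zfp931), 26.4% (Zfp970) and 16.5% (Zfp937) also occur in other genes, and how the counting treated such reads is not stated, so their values are uncertain to that extent.

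Zfp931 and Zfp970 belong to a group of 9 members spread over 174.6 to 178.1 Mb of chromosome 2, near the end of the chromosome, in which 3 were tested and all 3 were lower (median -1.22). The third, Zfp971, had 9.92, 10.9, 14.7 and 10.1 CPM in wild-type and 8.28, 6.0, 8.30 and 7.76 CPM in deleted libraries, lower in every deleted library than in any wild-type one (log2 fold change -0.60, SE 0.15, adjusted p = 0.00495); 29.4% of its windows occur elsewhere too. Zfp937 lies apart, at 150.2 Mb. The group's other tested genes, which carry Gm names, behaved alike: 5 of 6 were lower, with Gm14322 at -2.07 and Gm14403 at -1.43 (these 2 were chosen after their values were seen). The 6 remaining members of the group were at 5 counts or fewer in every library and were not tested.

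The sequences upstream of the start sites of these 4 genes are shown because the genes moved together and the sequences are closely related. Each line gives the 250 bases before the RefSeq transcript start (GRCm38.p6), 5′ to 3′ on the strand of the gene, and capitals mark the longest run of bases that all 4 have in common. The Zfp931 stretch is chr2:178078426-178078675 on the minus strand, that of Zfp970 is chr2:177464492-177464741 on the plus strand, that of Zfp971 is chr2:178023034-178023283 on the plus strand, and that of Zfp937 is chr2:150217849-150218098 on the plus strand.
Zfp931: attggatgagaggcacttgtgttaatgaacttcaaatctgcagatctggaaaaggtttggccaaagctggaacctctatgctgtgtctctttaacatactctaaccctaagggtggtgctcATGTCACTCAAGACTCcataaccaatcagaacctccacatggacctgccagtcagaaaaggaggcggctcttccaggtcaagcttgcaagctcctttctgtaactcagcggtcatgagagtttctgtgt
Zfp970: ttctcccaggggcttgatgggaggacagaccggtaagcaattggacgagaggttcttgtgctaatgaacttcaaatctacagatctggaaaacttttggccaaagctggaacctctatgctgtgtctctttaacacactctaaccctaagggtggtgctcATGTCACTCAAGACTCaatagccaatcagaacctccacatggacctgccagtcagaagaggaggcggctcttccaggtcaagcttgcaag
Zfp971: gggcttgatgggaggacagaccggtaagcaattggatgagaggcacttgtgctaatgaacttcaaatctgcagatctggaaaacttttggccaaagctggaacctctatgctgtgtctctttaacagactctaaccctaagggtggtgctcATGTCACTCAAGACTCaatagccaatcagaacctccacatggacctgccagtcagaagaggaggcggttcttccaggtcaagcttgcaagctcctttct
Zfp937: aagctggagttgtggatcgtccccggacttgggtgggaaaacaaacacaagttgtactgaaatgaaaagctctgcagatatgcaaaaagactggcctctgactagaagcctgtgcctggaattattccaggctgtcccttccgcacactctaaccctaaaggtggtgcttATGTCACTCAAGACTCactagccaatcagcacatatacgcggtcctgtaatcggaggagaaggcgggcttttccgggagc

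The 3 sequences from the distal group were 94.8% to 97.5% identical over their aligned columns, and each was 63.5% to 66.4% identical to that of Zfp937. The shared run of 16 bases, ATGTCACTCAAGACTC, begins 80 to 129 bases before the start and is followed by a CCAAT box in all 4. It was found, on either strand, in 37 of 32851 promoters of the table (0.113%, windows of 250 bases before to 50 after the start), which belong to 33 genes, 32 of them on chromosome 2. Of those 33 genes, 11 were tested: 10 were lower, 1 did not pass (Gm14295, log2 fold change -0.66, adjusted p = 0.18) and none was higher, and their median was -0.87. Members made up 4 of the 11, all lower, but these are the 4 genes from which the run was taken, so they were bound to be lower carriers. Of the other 7 tested, 6 were lower, beside 29.6% of all genes tested. The Gm genes among these 7 are those of the distal group already counted above. A second run in all 4 sequences, of 13 bases (ACTCTAACCCTAA), was found in the promoters of 40 genes, of which 14 were tested; 11 of these were lower, 3 missed the threshold and the median was -0.63. The 3 tested carriers off chromosome 2 lie on chromosome 13: Zfp808, a member (log2 fold change 0.09, adjusted p = 0.62), and Gm3604 (0.06, adjusted p = 0.88) did not pass, and Gm5141 was lower (-0.57, adjusted p = 0.011). The runs were sought after the values of these genes had been seen, and the 4 genes that define both runs are among the lower carriers of each. The genes of the distal group are duplicates that lie close together, while Zfp937 lies apart. A match says nothing of which factor, if any, binds there.

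Outside chromosome 2 the largest decreases were in members scattered over several chromosomes. Zfp775 on chromosome 6 had 23.7, 25.4, 21.3 and 25.5 CPM in wild-type and 12.3, 13.7, 13 and 13.9 CPM in deleted libraries (log2 fold change -0.86, SE 0.07, adjusted p = 3.98e-06). Zfp605 on chromosome 5 had 65.0, 63.2, 76.7 and 68.7 CPM against 38.7, 36.1, 39.8 and 41.4 CPM (log2 fold change -0.81, SE 0.07, adjusted p = 3.05e-06). Both were separated by a gap wider than the spread within either group. Zfp811 on chromosome 17 had 48.4, 46.3, 51.1 and 46.9 CPM against 29.9, 26.5, 27.9 and 33.2 CPM (log2 fold change -0.71). Zfp975 (-0.76), Zfp873 (-0.65), Zfp809 (-0.64) and Zfp949 (-0.62) completed the 10 lower members named by size of change among those whose groups did not overlap; the closest was Zfp975, whose lowest wild-type library had 3.35 CPM and highest deleted library 3.06 CPM.

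Increases were fewer and smaller. Zfp660 on chromosome 9 had 8.50, 9.14, 9.32 and 8.49 CPM in wild-type and 18, 15.9, 15.4 and 15.5 CPM in deleted libraries (log2 ratio of deleted to wild-type 0.87, SE 0.07, adjusted p = 3.96e-06). No coding sequence was matched to Zfp660, so its fingers and KRAB box were not read. Its sequence in common with other genes was not measured either, so its value may be uncertain for that reason. Zfp707 on chromosome 15 had 15, 13, 12.8 and 12.7 CPM against 19.8, 20.2, 18.4 and 19.7 CPM (0.55, SE 0.07, adjusted p = 5.74e-05). Zfp963 on chromosome 8 had 14.7, 14.9, 13.2 and 15.9 CPM against 26.3, 18.4, 19.1 and 18.2 CPM (0.49, SE 0.12, adjusted p = 0.00487), with deleted replicate 1 the highest. The other 7 of the 10 higher members named by size of change, again only where the groups did not overlap, were Zfp619 (0.38), Zfp688 (0.35), Zfp612 (0.32), Zfp687 (0.29), Zfp647 (0.28), Zfp768 (0.27) and Zfp646 (0.27). Zfp783 (0.32) and Zfp715 (0.30) were also higher but had overlapping groups. Zfp687, which forms a complex with the chromatin reader Zmynd8, overlaps Pi4kb, and Zfp646 overlaps Prss53, so with the strand setting of the counting not given in the sources used here their reads are uncertain.

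**Figure D3:**
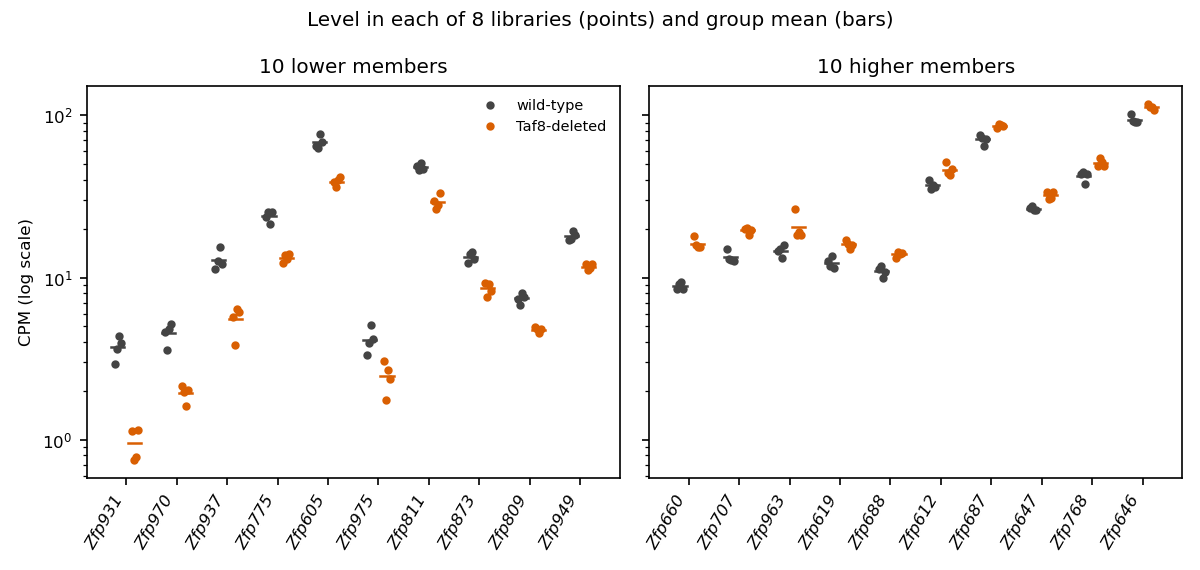
CPM on a log axis in each of the 8 libraries (points; 4 wild-type, 4 Taf8-deleted) and group means (bars) for the 10 lower and 10 higher members with the largest changes among those past the threshold whose groups do not overlap, a condition of the choice. Zfp931 drops furthest, from 2.92 to 4.33 CPM to 0.747 to 1.15 CPM.

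By position, 90 members fell into 12 clusters of at least 4, each start within 1 Mb of the next, and 75 lay outside. Members in clusters and outside them gave similar figures. In clusters, 28 were lower and 7 higher of 76 tested (36.8% and 9.21%, median -0.15). Outside, 28 were lower and 10 higher of 71 tested (39.4% and 14.1%, median -0.16). Of all genes tested, 29.6% were lower and 29.5% higher. Lower members outnumbered higher ones in 10 of the 12 clusters, and in 9 or 10 without each library in turn. Clusters differed in how far they moved. Of 14 members in the largest, at 21.4 to 22.9 Mb of chromosome 17, all with a KRAB box and all tested, 2 were lower and none was higher (median -0.13), and for none of the 14 were the groups fully apart; its member with the smallest adjusted p, Zfp677, had 4.80 ± 0.72 CPM in wild-type and 3.38 ± 0.56 CPM in deleted libraries (SD, n = 4; log2 fold change -0.50, SE 0.15, adjusted p = 0.0132). The median of this cluster was -0.03 without deleted replicate 2 (1 lower), -0.04 without wild-type replicate 3 (1 lower, 1 higher), -0.22 without wild-type replicate 1 (3 lower) and -0.24 without deleted replicate 4 (4 lower), and it was 0.06 with deleted replicate 4 alone. On chromosome 4, at 145.7 to 147.8 Mb, 6 of 12 members were tested and none passed in either direction with edgeR, DESeq2 or limma voom, and none had an unadjusted p under 0.05 with edgeR (9257 of 15649 genes passed with edgeR); the member with the smallest p was Zfp933, with 27.5 ± 3.76 and 24.1 ± 3.26 CPM (SD, n = 4; adjusted p = 0.16).

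On chromosome 8 neighbouring members moved in opposite directions. In the cluster at 69.2 to 69.8 Mb, 4 of 6 were lower, among them Zfp866, which had 93.9, 90.8, 99.7 and 92.2 CPM in wild-type and 66.2, 61.9, 65.9 and 62.7 CPM in deleted libraries (log2 fold change -0.55, SE 0.04, adjusted p = 2.09e-06). Zfp963, described above as higher, is its nearest neighbour among the members. Between 5% and 50% of the windows of Zfp963 also occur in other genes, so its side of this contrast is uncertain to that extent. With deleted replicate 4 alone, the log2 fold change of Zfp963 was 0.31. The second chromosome 8 cluster, at 71.9 to 72.0 Mb, had 2 of 4 lower, with Zfp882 at 40.7 ± 3.24 CPM in wild-type and 26.6 ± 1.62 CPM in deleted libraries (SD, n = 4; log2 fold change -0.62).

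The cluster at 127.2 to 127.9 Mb of chromosome 7 was the only 1 of the 12 with more members higher than lower. Of its 9 members, 4 were higher (Zfp768, Zfp688, Zfp629 and Zfp646), 2 were lower (Zfp689 and Zfp668) and 3 did not pass, with a median of 0.07 (0.05 without deleted replicate 3, when 3 were higher and 2 lower). Zfp668 had 39.3, 37.6, 34.8 and 37.5 CPM in wild-type and 25.9, 28.1, 24.9 and 25.6 CPM in deleted libraries (log2 fold change -0.51, SE 0.05, adjusted p = 1.84e-05). Its neighbour Zfp646 had 102, 92.1, 91.0 and 90.5 CPM against 118, 113, 113 and 108 CPM (0.27, SE 0.05, adjusted p = 0.000686). These adjacent genes thus moved in opposite directions, each without overlap between the groups. Of 22 other tested genes in the same stretch, 6 were higher and 4 lower.

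The remaining clusters each had 2 or 3 members lower. Their members with the smallest adjusted p were Zfp775 (chromosome 6, 3 lower and 1 higher of 6), Zfp773 (chromosome 7 at 6.1 to 7.2 Mb, 2 lower of 5, log2 fold change -0.52), Zfp788 (chromosome 7 at 41.6 to 43.6 Mb, 2 lower and 1 higher of 8, or 4 lower without deleted replicate 3 and 3 lower without wild-type replicate 1 or 2, -0.43), Zfp809 (chromosome 9, 2 lower of 3), Zfp759 (chromosome 13, 3 lower of 6, -0.58) and Zfp811 (chromosome 17 at 32.8 to 33.0 Mb, 3 lower of 6). Taf8 lies on chromosome 17 too, where 5 of 22 tested members were lower (22.7%, beside 29.6% of all genes) and none was higher.

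**Figure D4:**
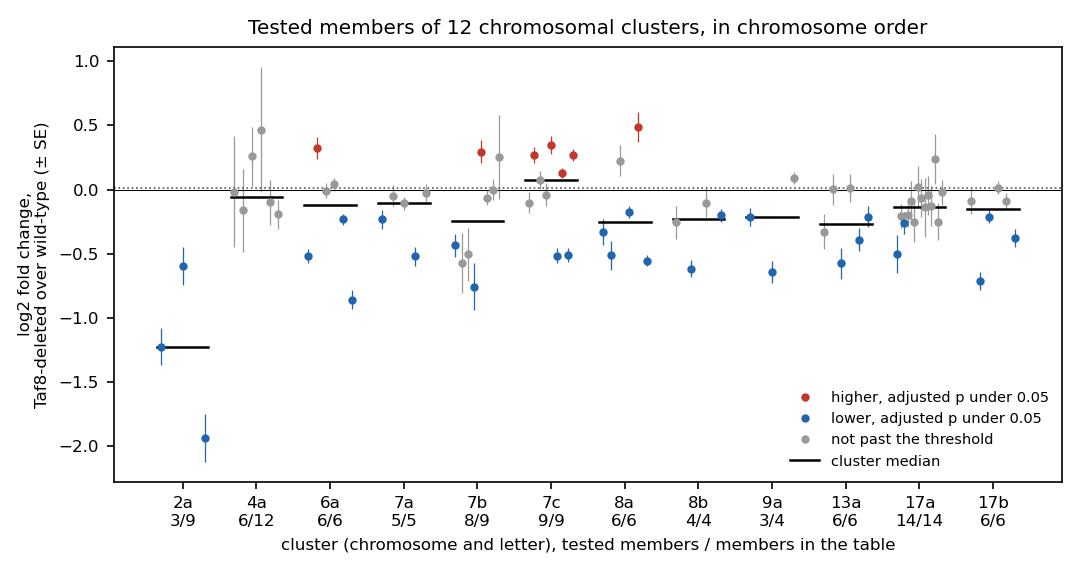
Log2 fold change (y axis, bars ± SE) of tested members in the 12 chromosomal clusters (x axis, with tested over listed members), in order along each chromosome, coloured by the test; black bars are cluster medians. The chromosome 2 cluster (2a) has a median of -1.22, and the third cluster on chromosome 7 (7c) lies at 0.07.

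Members with and without a detected KRAB box moved in the same direction. Of 98 tested with the box, 36 were lower and 7 higher (36.7% and 7.14%, median -0.16). Of 45 without it, 20 were lower and 8 higher (44.4% and 17.8%, median -0.20). Among all genes tested, 29.6% were lower and 29.5% higher. The summed level of KRAB members was 2003, 2080, 2391 and 2074 CPM in wild-type and 1982, 1704, 1826 and 1940 CPM in deleted libraries. All deleted sums were below all wild-type sums, but wild-type replicate 1 and deleted replicate 1 nearly met. Members without the box summed to 3267, 3236, 3259 and 3175 CPM against 2952, 2870, 2930 and 2954 CPM, with a wider gap beside a smaller spread. Wild-type replicate 3 was the highest wild-type library for 73 of the 98 KRAB members but for 12 of the 45 others, and deleted replicate 2 was the lowest deleted library for 65 of the 98. Without wild-type replicate 3, 31 KRAB members were lower and 9 higher and their median was -0.09; for members without the box the figures were 22 lower, 9 higher and -0.16. By number of fingers, the median was -0.20 for 21 tested members with 5 or fewer, -0.09 for 46 with 6 to 10, -0.23 for 48 with 11 to 15 and -0.12 for 28 with 16 or more, with no steady trend.

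**Figure D5:**
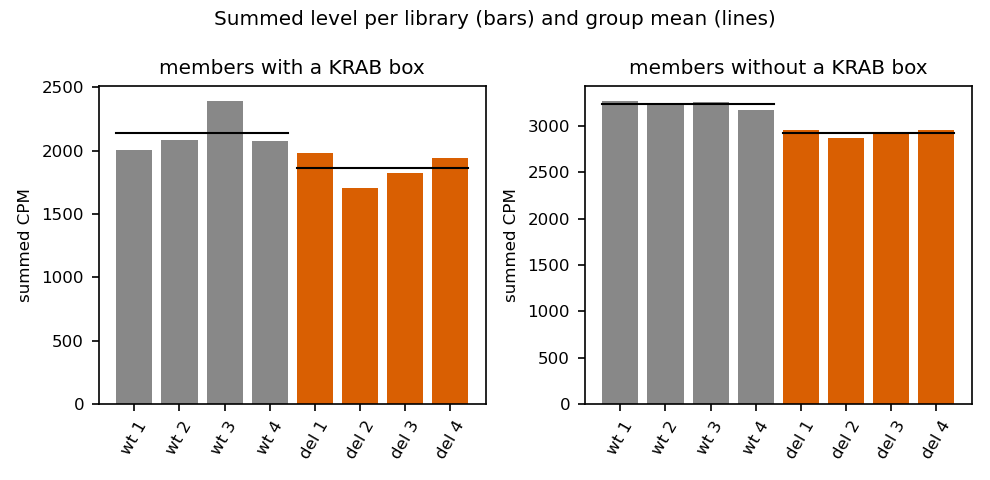
Summed CPM (y axis, from 0) of members with and without a detected KRAB box in each of the 8 libraries (wt, wild-type; del, Taf8-deleted), with group means as lines. Among KRAB members, wild-type replicate 3 stands highest at 2391 CPM and deleted replicate 2 lowest at 1704 CPM; the other members differ less within each group.

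The most abundant members were not KRAB genes. By CPM per kilobase of gene length, averaged over all 8 libraries, Zfp664 came first (81.0), followed by Zfp740 (58.0), Zfp637 (49.9), Zfp821 (47.6), Zfp706 (37.2) and Zfp638 (36.8), none with a detected KRAB box. Zfp664 had 323 ± 6.72 CPM in wild-type and 338 ± 7.49 CPM in deleted libraries (SD, n = 4) and did not pass (log2 fold change 0.07, adjusted p = 0.13). The other 5 were lower, by 0.42 on the log2 scale for Zfp637 and by 0.45 for Zfp638. Zfp638, a large nuclear protein that silences unintegrated retroviral DNA, had 260, 268, 305 and 266 CPM in wild-type and 209, 195, 196 and 203 CPM in deleted libraries. Its deleted values lay close together, all under the lowest wild-type value.

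Of 13 members listed for roles outside KRAB repression, 6 were lower, 2 were higher and 5 did not pass; 46.2% were lower and 15.4% higher, beside 29.6% and 29.5% of all genes tested. Zfp608 and Zfp609 encode related nuclear proteins, and Zfp609 acts with Nipbl and is needed for migration of cortical neurons. Zfp608 had 142, 148, 139 and 134 CPM in wild-type and 108, 99.3, 104 and 109 CPM in deleted libraries (log2 fold change -0.42, SE 0.04, adjusted p = 1.78e-05). Zfp609 had 242, 227, 220 and 211 CPM against 189, 182, 193 and 193 CPM (-0.25, SE 0.05, adjusted p = 0.00095). In both genes the groups were apart. The co-repressor Zfp703 (log2 fold change -0.32), Zfp706 (-0.23) and Zfp746, also called Paris, a repressor of Ppargc1a (-0.23), were lower too. The test was not passed by Zfp644, a partner of the G9a methyltransferase (-0.06, adjusted p = 0.41), the ribosome maturation factor Zfp622 (0.02, adjusted p = 0.76), Zfp704 (-0.20, adjusted p = 0.0764), Zfp800 (-0.06, adjusted p = 0.53) or Zfp830 (-0.08, adjusted p = 0.26). The higher ones were Zfp687, described above, and Zfp711. Zfp711, an X-linked gene tied to intellectual disability, had 40.7, 42.3, 51.4 and 39.7 CPM against 54.1, 46.5, 49.3 and 51.8 CPM; the groups overlapped, and its higher call was marginal (log2 fold change 0.21, SE 0.08, adjusted p = 0.0473).

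Of the 7 members listed as acting on retroelements, 6 were tested and 2 were lower, a share of 33.3% close to the 29.6% of all genes tested. Zfp809, which recognises the primer binding site of murine leukaemia viruses, had 7.40, 6.75, 8.05 and 7.57 CPM in wild-type and 4.96, 4.80, 4.52 and 4.81 CPM in deleted libraries (log2 fold change -0.64, SE 0.08, adjusted p = 9.16e-05). It overlaps Zfp599, so some of its reads are uncertain. Zfp961 had 31.9 ± 1.24 CPM in wild-type and 27.7 ± 1.63 CPM in deleted libraries (SD, n = 4; log2 fold change -0.20, adjusted p = 0.00809). Zfp708, Zfp819, Zfp932 and Zfp992 did not pass, with log2 fold changes of 0.00, 0.25, -0.27 and -0.02; the last 3 were under 1.1 CPM in every library, and 94.3% of the 81-base windows of Zfp708 also occur in other genes. Zfp600 had at most 1 count in any library and was not tested.

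A fixed list of 35 genes held mainly the co-repressor machinery on which KRAB proteins depend, and also the KRAB protein Zfp57 and Nrbf2. Of the 35, 34 were tested: 13 were lower, Zfp57 among them, and 7 higher, Nrbf2 among them, with a median of -0.09. These are 38.2% and 20.6%, beside 29.6% and 29.5% of all genes tested, and the share called in either direction, 58.8%, was close to the 59.2% of all genes. Trim28, the scaffold that binds the KRAB domain, had 781, 760, 666 and 753 CPM in wild-type and 541, 617, 589 and 588 CPM in deleted libraries (log2 fold change -0.34, SE 0.06, adjusted p = 0.00042). Its highest deleted library was under its lowest wild-type one. Setdb1 moved the other way, from 166 ± 5.44 to 186 ± 3.37 CPM (SD, n = 4; log2 fold change 0.16, SE 0.04, adjusted p = 0.00419). Larger decreases were seen in Chd3, a remodeller of the NuRD complex (-0.95), Zfp57, the KRAB protein that guards imprints (-0.72), the Setdb1 partner Atf7ip (-0.58) and the DNA methyltransferase Dnmt3a (-0.47). Dnmt3b (0.71) and the histone deacetylase Hdac1 (0.86) were higher. Hdac1 had 11.3, 10.7, 10.7 and 10.3 CPM in wild-type and 24.6, 16.2, 18.6 and 18.7 CPM in deleted libraries, with deleted replicate 1 the highest. Sequence in common with other genes was not measured for the co-repressor list, so its values may be uncertain in the same way.

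RefSeq promoter windows (GRCm38.p6) were found for 144 of the 165 members, 174 windows in all. The CCAAT box, searched as CCAAT on both strands, was present in 57.5% of them, against 37.3% of all other promoters of the table. TATAAA was present in 5.17% against 13.7%, GGGCGG in 42.5% against 35.6%, and CGCCATNTT in 6.32% against 2.36%. Beside the promoters of other tested genes, members still held CCAAT more often (56.1% of 157 against 37.4%) but GGGCGG less often (44.6% against 61.1%). The contrasts in TATAAA (5.1% against 7.53%) and CGCCATNTT (6.37% against 4.3%) were smaller there. GGGCGG stood in 30.2% of 63 promoters of lower members, 54.4% of 79 of members that did not pass and 53.3% of 15 of higher members. In the same order, CCAAT stood in 61.9%, 54.4% and 40%, and CGCCATNTT in 9.52%, 5.06% and 0%. TATAAA stood in 9.52%, 2.53% and 0% (6, 2 and 0 promoters). The 63, 79 and 15 promoters belong to 51, 67 and 10 genes. Promoters of other genes were not split by the test in this way, so whether the differences are particular to members is not known. These counts are descriptions of letters in the windows, and no test was made.

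The 18 members not tested included 9 with no count in any library, and 14 with at most 3 counts in every library. Of these 18, 12 were in the clusters on chromosomes 2 and 4. At least 50% of the 81-base windows of 9 of the 18 also occur in other genes; whether reads were lost for that reason was not tested. Of all members, 13 had that much sequence in common with other genes, and of the 4 tested none passed or had an unadjusted p under 0.05 with edgeR. Among 115 tested members with under 5% in common, 47 were lower and 14 higher (median -0.16), the same direction as the whole. These are 40.9% and 12.2%, beside 29.6% and 29.5% of all genes tested. Of the 73 members called, 13 overlap another annotated gene.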

How the data were processed

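Polyadenylated RNA from the cortex of 8 embryos was sequenced from stranded libraries as 81-base paired-end reads. Per the submitters' processing notes, the authors aligned to mm10 and made whole-number counts per gene with Subread 1.5.0 featureCounts; the sources used here do not state how strand or multi-mapping reads were handled. Symbols came from RefSeq (25275 genes) and GENCODE (18), and 1886 genes had none. Counts as deposited were tested with edgeR 4.0.16 (R 4.3.3): filterByExpr, TMM scaling, quasi-likelihood F-test on genotype over all 8 libraries, Benjamini-Hochberg over 15649 genes, threshold 0.05. The same fit was run on counts simulated from these libraries, with 200 of 15307 genes changed. It recovered 75% of 1.5-fold and 83% of 2-fold changes, and 7.06% of calls were false. In the data 59.2% of genes passed, a far larger share than was changed in the simulation, so these rates may not hold for the real fit. The SE of a log2 fold change is its size divided by the square root of F. DESeq2 1.42.0 and limma voom 3.58.1 were alternatives, with other scalings, filters, a replicate block and each library left out. With libraries of 26312505 to 65523487 counts, 3 counts equal 0.0458 to 0.114 CPM.

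Fingers and KRAB boxes were read by pattern from translated GENCODE coding sequences, in place of the RefSeq proteins first planned; shared sequence is the percent of 81-base windows of a gene's transcripts found in other genes; coordinates are RefSeq GRCm38.p6, the files' build. Genes were named by rule: Taf8; the 10 members most raised and the 10 most lowered (past the threshold, groups apart, at least 2 CPM in the higher group); the 6 most abundant per length; the smallest adjusted p of each cluster; the leading co-repressors with Trim28 and Setdb1; and listed members with known roles. Other genes named were picked after their values were seen. Members and lists were chosen with earlier results of these data known.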

Additional observations from a re-analysis of the deposited data

Results flagged for a closer look

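In groups of 4, a library was singled out where its gap to the nearest other library took up more of the group's range than Dixon's 95% critical value, which chance does in about 1 group in 20; 120 groups were looked at and 10 were picked out. Wild-type replicate 3 was high for the summed level of all members (5685 CPM, next 5349), for Zfp933 (33.2 CPM, next 25.8) and for Zfp644 (117 CPM, next 102). Wild-type replicate 1 was high for Zfp707 (15 CPM, next 13) and Zfp646 (102 CPM, next 92.1). Deleted replicate 2 was low for Chd3 (503 CPM, next 532) and Zfp664 (327 CPM, next 341), and deleted replicate 1 was high for Zfp963 (26.3 CPM, next 19.1). Zfp600 had a single count in wild-type replicate 3 (0.0156 CPM) and in deleted replicate 3 (0.0374 CPM) and none elsewhere in its groups.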

How the results depend on the processing

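Every planned change of scaling, filter, test, covariate and threshold left the counts of members lower and higher within 1.5 times of 56 and 17, and scaling moved the median of all genes to at most 0.05. Without each library in turn, 51 to 59 members were lower and 13 to 20 higher, and the median lay between -0.22 (without deleted replicate 4) and -0.10 (without wild-type replicate 3). KRAB members lower ranged from 31 to 38, Zfp1 to Zfp599 genes lower from 78 to 88, co-repressors lower from 12 to 16 and higher from 6 to 7, and Taf8 from -5.88 to -5.66. Lower members outnumbered higher ones in 7 of 11 clusters chained within 0.5 Mb and 11 of 13 within 2 Mb. Replicate numbers do not pair the samples: deviations of same-numbered libraries correlated at -0.28, 0.01, -0.07 and -0.46, and with the replicate block 52 members were lower and 14 higher (median -0.16). Deleted replicate 4 alone, a setting added after the data were seen with 1 deleted library, gave 26 members lower and 4 higher, 16 KRAB members lower, 39 genes of Zfp1 to Zfp599 lower, and 5 co-repressors lower and 2 higher. Of 46 named genes past the threshold, 45 kept the call in all 16 planned fits. Zfp711 did not, and none of the 46 changed sign. With deleted replicate 4 alone, some of those 45 were no longer past the threshold. Many of the 46 were named for large changes past the threshold with groups apart, so their stability was partly set by the choice. Over all members, 13 of the 17 higher calls were kept without wild-type replicate 2 or without wild-type replicate 4. Without wild-type replicate 3, 50 of the 56 lower calls were kept. Signs changed in 6 named genes that did not pass. Zfp708 was at -0.00401 with DESeq2, -0.00445 with its size factors, -0.00316 with no filter and -0.12 to 0.077 with libraries left out. Zfp992 was at 0.016 with DESeq2, 0.026 with library size alone, 0.23 with limma voom, 0.12 with the replicate block, 0.012 with upper-quartile scaling and -0.32 to 0.39 with libraries left out. With libraries left out, Zfp622 ranged from -0.022 to 0.023, Zfp644 from -0.097 to 0.0036, Zfp800 from -0.12 to 0.0047 (0.051 with deleted replicate 4 alone) and Zfp819 from -0.083 to 0.55. Depth limits members under about 1 CPM, whose SE is widest.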
